A study of Maylandia zebra with 2 samples.

Results

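Cluster 8 is a small cluster of the Immune class in oral lamina of *Maylandia zebra*, a cichlid fish of Lake Malawi that replaces its teeth throughout life. Its members are the 50 nuclei that the deposited metadata mark as kept and number 8, out of 1296 kept nuclei and 1381 barcodes in all. They made up 3.86% of the kept nuclei (2.88–5.05, Clopper-Pearson 95% interval) and 18.8% of the 266 nuclei named Immune. The genes that mark them, *fer1l6* and *foxa3* on one side and *prox1a* and *il22ra2* on the other, lay mostly in different nuclei. For description the cluster was divided into 3 sets by the deposited embedding.

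The study sampled the soft tissue beside the replacement teeth, with 1 library from the upper and 1 from the lower jaw. Nuclei were released by lysis, sorted as single DAPI-positive events and made into 10x V3 libraries aimed at 3000 nuclei each. The labels name no treatment, genotype or age, and they do not say how many fish were pooled. Barcodes end in suffix 1 or 2, which the files tie to neither jaw. All nuclei therefore form 1 pooled sample without replicates, and no test was possible.

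The RNA molecules counted in cluster 8, each known by its unique molecular identifier (UMI), came to 61796 UMIs. Its nuclei ranged from 427 to 3024 UMIs with a median of 935.5, against 824.5 in the other 1246 kept nuclei, which held 1361244 UMIs. Levels are given as CPM, counts per 1000000 UMIs of the summed group. Where a gene had no UMI, a limit of 3 UMIs over the group was used, which is 48.5 CPM in cluster 8 and 2.2 CPM in the others. Intervals in parentheses are exact 95% intervals for counting error only. The cluster was built from these same counts, so its genes describe it and are no test. Suffix 1 gave 29 of the 50 nuclei and suffix 2 gave 21, 1 barcode sequence occurred in both suffixes among the kept nuclei, and none of the 50 nuclei carried it.

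The marker genes of the cluster belong to distant parts of biology. FOXA3 and SPDEF are transcription factors of secretory epithelium, and in mouse they act in goblet cells, which store mucus in granules and release it by fusing those granules with the cell surface. *fer1l6* codes for a ferlin, a membrane protein of a family that works in calcium-dependent membrane fusion. PROX1 is a homeobox factor best known from lymphatic endothelium and also present in developing sense organs such as taste buds, and *il22ra2* codes for a soluble receptor that binds interleukin 22 and keeps it from its receptor on epithelium.

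Over the whole cluster, the 4 markers stood well above the other kept nuclei. *fer1l6* had 79 UMIs in 21 of the 50 nuclei and 15 UMIs in the other 1246, a level of 1278 CPM (1012–1593) against 11, or 116-fold higher (66.3–217). *foxa3* had 20 UMIs in 10 nuclei against 6 elsewhere and was 73.4-fold higher (28.4–223). *prox1a* had 69 UMIs in 16 nuclei against 34 elsewhere, 1117 CPM (869–1413) against 25, and was 44.7-fold higher (29.2–69.5). *il22ra2* was 74.9-fold higher (26.5–260), but its 17 UMIs came from 4 nuclei, and 41.2% of them from a single one. In the Epithelial class, 1.36% of 808 nuclei (0.682–2.42) had a *prox1a* UMI and the same share a *fer1l6* UMI, at a median of 840.5 UMIs per nucleus, against 32.0% (19.5–46.7) and 42.0% (28.2–56.8) in cluster 8. The share with *prox1a* was not particular to the cluster. In the authors' taste bud class Immature TB, 7 of 18 nuclei had a *prox1a* UMI, 38.9% (17.3–64.3), and 0 had a *fer1l6* UMI.

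Further leading genes include several for signalling proteins. *MAPK8IP1*, a scaffold of the JNK kinase cascade, was 37.8-fold higher (21.5–68.1) than in the other nuclei. *runx1*, a Runt factor of blood cell development, was 25.4-fold higher (11.3–58.0), and *xirp2a*, a gene for an actin-binding protein known from muscle, 23.2-fold higher (14.6–36.9). *camk1b*, a calcium/calmodulin-dependent kinase, was 22-fold higher (15.2–31.8) and reached the most nuclei of these genes, 29 of 50. The adenylate cyclase gene *adcy6a* was 14.7-fold higher (8.58–24.7), the inositol trisphosphate receptor gene *itpr1b* 14.4-fold (7.33–27.6) and the phospholipase gene *PLCB4* 12.5-fold (6.46–23.4). They lay in different nuclei sets (described next): the *fer1l6* set held 14 of the 17 *PLCB4* UMIs, the *prox1a* set 14 of the 17 *itpr1b* UMIs, and *adcy6a* had 14 UMIs in the *fer1l6* set, 2 in the *prox1a* set and 10 in the *xirp2a* set. Of the 10 features with the highest ratios, 7 carry no gene symbol in the files.

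The 6 genes with the lowest ratios among those the naming rule took were of mixed kinds. *postnb*, which codes for a secreted matrix protein, had 0 UMIs in cluster 8 and 513 elsewhere, a ratio of at most 0.129 at the limit of 3 UMIs over the cluster. *PKP4*, a plakophilin gene, had 0 against 268 UMIs and a ratio of at most 0.247. The collagen genes *col1a1a* (1 against 396 UMIs, a ratio of 0.0556, 0.0014–0.312) and *col12a1b* (3 against 626 UMIs, 0.106, 0.0217–0.310) were almost absent too, as were the ubiquitin-conjugating enzyme gene *ube2e2* (1 against 310 UMIs, 0.0711, 0.00179–0.399) and the zinc finger gene *znf703* (1 against 282 UMIs, 0.0781, 0.00197–0.439).

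The deposited embedding showed the 50 nuclei as separate patches. They were joined by average linkage on its 2 axes and cut at 3 sets, which are named here by a leading gene. The number 3 was set and not found. The last 3 joins lay at distances of 1.654, 0.932 and 0.823, so the widest gap was at the last join. The split and the names were chosen after the values were seen, so what the sets hold is a description. The *fer1l6* set has 20 nuclei (23275 UMIs, 13 nuclei from suffix 1 and 7 from suffix 2), the *prox1a* set 18 (21449 UMIs, 7 and 11) and the *xirp2a* set 12 (17072 UMIs, 9 and 3). Median depth was 873.5, 902.5 and 1311.5 UMIs. Ward linkage, also cut at 3, placed 49 of the 50 nuclei alike. Clusters built anew from the counts of all kept nuclei put 17 nuclei of the *fer1l6* set, 16 of the *prox1a* set and 9 of the *xirp2a* set into 3 different clusters. In the same order, these held 20, 37 and 11 kept nuclei, of which 17, 18 and 10 were of cluster 8. With 539 listed and leading genes left out of the counts, the 50 nuclei alone were grouped anew, again cut at 3. This grouping put 41 with their set and 6 of the *prox1a* set with the *fer1l6* set. Clusters of all kept nuclei without those genes did not hold the *fer1l6* set together, which spread over 6 clusters with at most 7 nuclei in 1. In them, 17 nuclei of the *prox1a* set lay in a cluster of 119 nuclei, and 10 of the *xirp2a* set in a cluster of 11. Leading genes were picked by their spread over the whole cluster, so genes that lead 1 set alone could stay in. *prkg1b*, *sox13* and *rap1gap2a*, found in 8, 9 and 6 of the 50 nuclei, fell below the cut of 20% and stayed. Both groupings without the 539 genes therefore still used genes that lead a set. What those genes add was not tested.

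**Figure D1:**
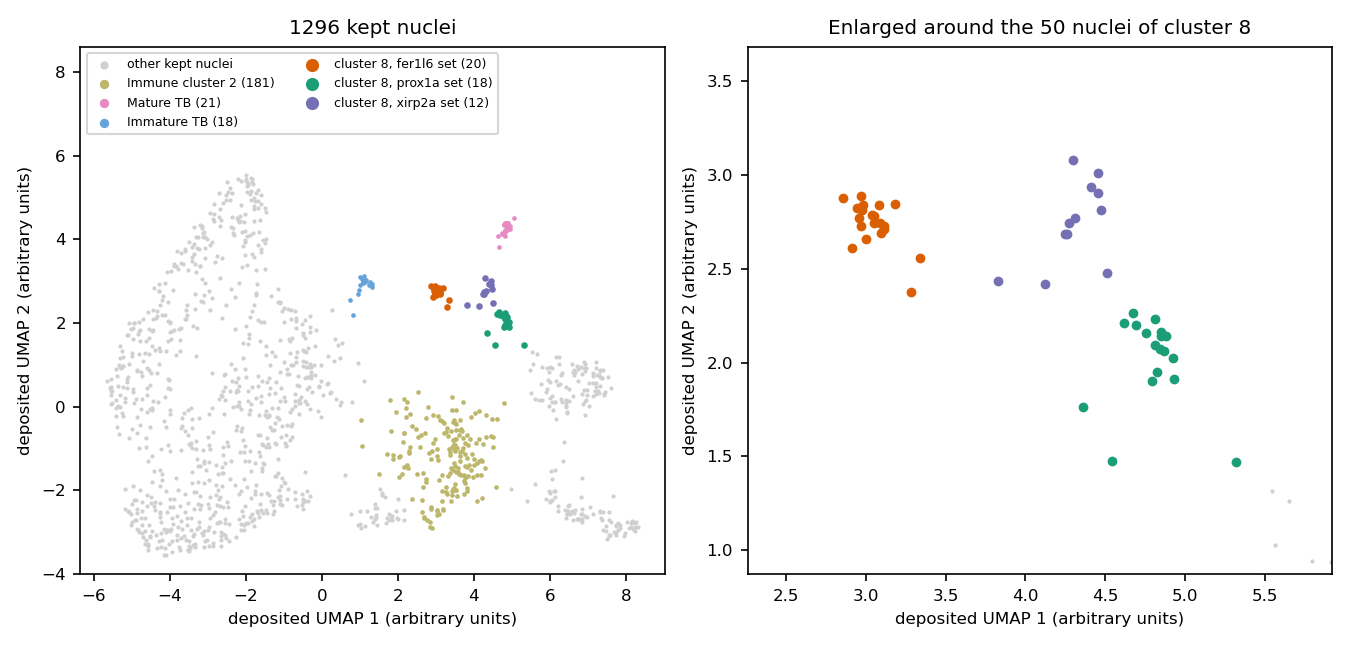
Deposited UMAP coordinates of the 1296 kept nuclei (left) and the region of cluster 8 (right), both axes in arbitrary units, with each point 1 nucleus. The 20 nuclei of the *fer1l6* set stand apart, while the 12 of the *xirp2a* set lie between them and the 18 of the *prox1a* set.

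The markers followed the sets. Of the 79 *fer1l6* UMIs, 74 lay in the *fer1l6* set, 2 in the *prox1a* set and 3 in the *xirp2a* set. The level in the *fer1l6* set was 3179 CPM (2496–3991). Of the 20 *foxa3* UMIs, 18 lay in the *fer1l6* set. *prox1a* gave 55 of its 69 UMIs to the *prox1a* set, at 2564 CPM (1932–3338), 13 to the *xirp2a* set and 1 to the *fer1l6* set. The set named for *prox1a* also held 15 of the 17 *il22ra2* UMIs.

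Counted nucleus by nucleus, 3 of the 50 had a UMI of both *prox1a* and *fer1l6*, 13 of *prox1a* alone, 18 of *fer1l6* alone and 16 of neither. The product of the shares of both genes corresponds to 6.72 nuclei, a description for which no test was made. For *prox1a* and *foxa3* 1 nucleus had both, beside 3.2 from the product. For other pairs the count was above the product: 8 of the 10 nuclei with *foxa3* also had *fer1l6*, all 4 with *il22ra2* also had *prox1a*, and 11 of the 15 with *MAPK8IP1* had *prox1a*, beside 4.2, 1.28 and 4.8 nuclei. Thinned to 500 UMIs per nucleus, which left 48 nuclei, 1 had both *prox1a* and *fer1l6*, beside 3.54 from the product. At that depth 1 had *prox1a* and *foxa3*, beside 1.04, and 2 had *foxa3* and *fer1l6*, beside 1.77. Thinned to 800 UMIs per nucleus, which left 33 nuclei, 10 had *prox1a*, 12 had *fer1l6* and 0 had both. The upper end of the Clopper-Pearson interval for that share is 10.6%. The product there corresponds to 3.64 nuclei. For *prox1a* with *foxa3* it was 0 beside 1.21, and for *foxa3* with *fer1l6* 3 beside 1.45. Of these 33 nuclei, 11 had neither *prox1a* nor *fer1l6* at this common depth, where thinning itself removes UMIs. What part depth has in the nuclei with neither gene was not tested. The 3 nuclei with both genes held 635, 1401 and 2637 UMIs. A search for doublets with Scrublet called 1 of all kept nuclei (0.0772%) and none in cluster 8, where the median score was 0.100 against 0.0682 elsewhere, and what part doublets have in these nuclei was not tested.

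**Figure D2:**
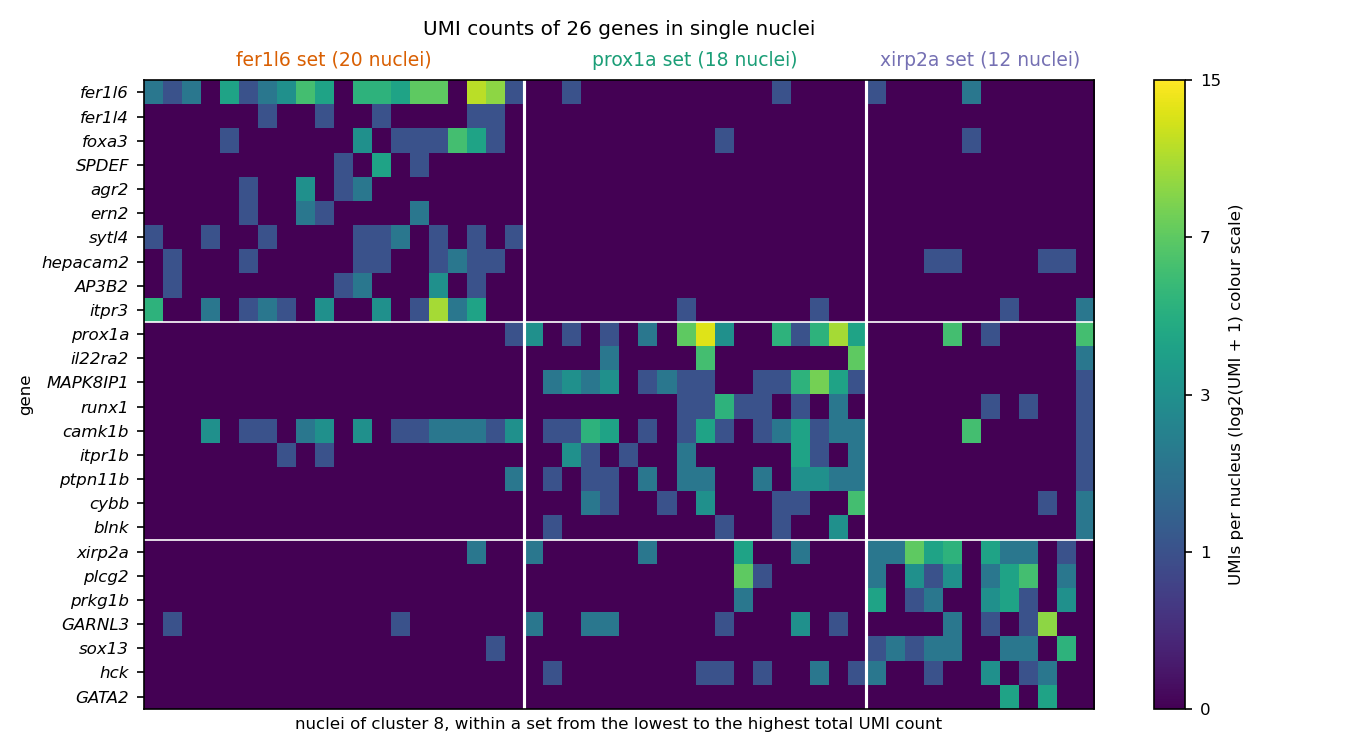
UMI counts of 26 genes (rows) in the 50 nuclei of cluster 8 (columns, ordered by set and total UMIs), coloured on a log2(UMI + 1) scale. The upper block of genes is filled mainly in the *fer1l6* set, the middle block in the *prox1a* set and the lower block in the *xirp2a* set. Not every gene kept to its block. *GARNL3* had a UMI in 4 of 12 nuclei of the *xirp2a* set and 6 of 18 of the *prox1a* set. *hepacam2* had a UMI in 8 of 20 nuclei of the *fer1l6* set and 4 of 12 of the *xirp2a* set. *camk1b* had a UMI in 13 of 20 nuclei of the *fer1l6* set and 14 of 18 of the *prox1a* set, but in 2 of 12 of the *xirp2a* set.

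The *fer1l6* set carried genes known from mucous secretory epithelium. *foxa3* was 135-fold higher (56.0–360) than in all kept nuclei outside the set, and all 6 *SPDEF* UMIs of cluster 8 lay in it, in 3 nuclei, against 2 UMIs elsewhere. *agr2*, which codes for a disulfide isomerase needed for mucin in mouse intestine, had 7 UMIs here of 13 in the tissue and was 70.2-fold higher (20.2–253). *ern2*, a stress sensor gene of the endoplasmic reticulum in mucous epithelium, had 6 UMIs and was 11.6-fold higher (3.97–28.3). *galnt12*, a gene for an enzyme that starts O-linked sugar chains, had 3 UMIs. None of *SPDEF*, *agr2*, *ern2* and *galnt12* had a UMI in the other sets.

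Genes of granule release were gathered in the same set. Whether they shared single nuclei with the mucous genes was not tested. *sytl4*, which codes for a Rab27 effector on secretory granules, had 10 UMIs in 9 of the 20 nuclei and 11 in all others, 54.7-fold higher (20.8–142). Its relative *sytl2b* gave 5 of its 6 UMIs and the ferlin gene *fer1l4* all 5 of its UMIs to this set. *rab27a* itself was 4.69-fold higher (2.29–8.65), and *UNC13B*, a priming factor of vesicle fusion, 4.59-fold higher (2.24–8.47). *AP3B2*, a subunit gene of an adaptor complex that sorts vesicle cargo, had 8 UMIs in 5 nuclei and 0 in the other 1276, at least 160-fold higher. All 8 *AP3B2* UMIs came from suffix 1, which gave 13 of the 20 nuclei. *itpr3*, the calcium release channel gene that also serves taste cells, was 6.77-fold higher (4.6–9.67), with 34 of the 39 UMIs of cluster 8.

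The goblet and mucous list, with *fer1l6* and *foxa3* in it, summed to 6402 CPM in the *fer1l6* set and 1670 outside it, 3.83-fold higher (3.23–4.52). Most of its UMIs in the set came from these markers of the cluster, 74 from *fer1l6* and 18 from *foxa3*, so the sum largely repeats them. Of its 20 measured members, 15 had a UMI. The regulated exocytosis list summed to 6531 against 1275 CPM, 5.12-fold higher (4.31–6.05), with *fer1l6* holding 74 of its 152 UMIs. In this set 9 of the 20 goblet members and 11 of the 23 exocytosis members were at least 2-fold higher, beside 24.5% of all 12230 measured features, and 1 and 0 were lower, beside 2.8%. At this depth 1 UMI can carry a rare feature past 2-fold. Among the 927 features with at least 5 UMIs expected in the set, 6.9% were higher and 22.7% lower, and only 2 goblet members (0 higher) and 1 exocytosis member (higher) passed this filter. *bace2*, *rap1gap* and *KCNMA1* of the goblet list had 0 UMIs in cluster 8, and its 41 symbols matched 30 features. The gel-forming mucins matched none by name and were not analysed here.

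Some leading genes of the set fall outside secretion. *tnfrsf21*, a death domain receptor gene, had 48 UMIs in 15 nuclei and was 13.2-fold higher (9.44–18.1). *runx2b*, a Runt factor gene of skeletal and tooth tissue, had 39 UMIs in 12 nuclei and was 10.5-fold higher (7.28–14.8). *mtnr1aa*, a melatonin receptor gene, was 22.2-fold higher (11.1–41.8) and *mitfb*, of the MITF family of pigment cells, 15.4-fold higher (6.86–31.5). The feature ENSMZEG00005026721, which has no symbol, had 134 UMIs in 15 of the 20 nuclei and 9 in the other 1276. The leukocyte list had a summed ratio of 1.22 to the nuclei outside, with an interval that includes 1 (0.954–1.54), and the B cell list had 2 UMIs in total.

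The *prox1a* set joined *prox1a* to genes of immune receptor signalling. *MAPK8IP1* had 35 UMIs in 14 of the 18 nuclei, 0 in the *fer1l6* set and 1 in the *xirp2a* set, and was 104-fold higher (59.3–186) than outside the set. *runx1* was 49.0-fold higher (21.2–110), with 12 UMIs in 7 nuclei. *rassf7a*, a gene of the RAS association domain family, was in most nuclei, 15 of 18, and 17.6-fold higher (12.2–25). *ptpn11b*, which codes for a SHP2-type phosphatase, was 27.4-fold higher (15.7–46.5) and *cybb*, the oxidase subunit gene of phagocytes, 15.1-fold higher (7.99–26.7). The feature ENSMZEG00005023247, without a symbol, had 100 UMIs in 15 nuclei and was 126-fold higher (89.0–179).

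Of the B cell list, 8 of 9 measured members were at least 2-fold higher in this set, beside 23.4% of all measured features, and none was lower, beside 2.95%. No member of the list had 5 UMIs expected in the set, and of the 825 features that did, 10.8% were higher and 29.6% lower. The list summed to 1305 CPM against 203, 6.44-fold higher (4.21–9.51), on 28 UMIs. *blnk*, the linker of the B cell receptor, had 6 of them, *swap70b* 6, and the kinase genes *btk* and *syk* 4 each. *cd79a*, which codes for a chain of the receptor itself, had 3 UMIs, and *pax5*, the B lineage factor, 2. The leukocyte list was 2.38-fold higher (1.98–2.84), led by *dock8* (5.32-fold, 3.24–8.30) and by *cd74a*, the invariant chain gene, with 33 UMIs. *ptprc*, a pan-leukocyte member of that list, had no UMI in this set. The epithelium list summed to 0.319 of the level outside (0.275–0.369), the lowest ratio of the 3 sets, and 12 of its 24 members were at least 2-fold lower. Of the endothelium and lymphatic list, *cdh5*, *pecam1*, *kdr*, *kdrl*, *flt1*, *tie1* and *lyve1a* had 0 UMIs in all of cluster 8, and *prox1a* itself made up 55 of the list's 64 UMIs in this set. Other members, not named here, held the rest. Against Immune cluster 2, the list's median in cluster 8 as a whole was at least 2-fold higher, but −0.15 on the log2 scale with no UMI minimum.

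In the *xirp2a* set, the gene *xirp2a* had 29 UMIs in 9 of the 12 nuclei, 1699 CPM (1138–2440), and was 46.8-fold higher (28.6–75.3) than outside. *prkg1b*, a cGMP-dependent kinase gene, was 40.1-fold higher (21.5–72.2) with 18 UMIs in 7 nuclei. *plcg2*, a phospholipase downstream of immune receptors, was 24.9-fold higher (14.9–40.2), and *sox13*, a SOX factor gene, 21.9-fold higher (12–37.8), both in 8 nuclei. *rap1gap2a* and *wasf1* had no UMI in the other sets. Suffix 1 gave 9 of the 12 nuclei of the set and most UMIs of several of these genes. All 18 *sox13* UMIs of cluster 8 came from it, as did 17 of 20 for *prkg1b* and 28 of 31 for *plcg2*, whose ratio over the whole cluster was 15.7 (9.18–26.7) in suffix 1 and 2.37 (0.47–7.54) in suffix 2. Of the suffix 2 nuclei of the set, only that of 1501 UMIs had UMIs of *xirp2a*, *prkg1b* or *plcg2*. *adgrg6*, an adhesion receptor gene, was 30.2-fold higher (17.6–50.0) but had its 22 UMIs in only 3 nuclei, 12 of them in 1.

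Genes known from tuft cells of mouse, the chemosensory cells of airway and gut, were scattered over this set in low numbers. The tuft list summed to 17 UMIs, 4.39-fold higher (2.52–7.14) than outside. The Src-family kinase gene *hck* gave 9 of them in 5 nuclei, *avil* 3 in 1 nucleus and *trpm5*, the cation channel gene of taste and tuft cells, 2. *hck* was not particular to this set, with 7 UMIs in 6 of the 18 nuclei of the *prox1a* set. Of the list's 8 measured members, 4 were at least 2-fold higher, beside 22.3% of all features, and none was lower, beside 1.76%. No member had 5 UMIs expected here either, and of the 568 features that did, 8.8% were higher and 21.3% lower. Against Mature TB, the tuft list's median in cluster 8 as a whole was at least 2-fold lower, but 0.29 on the log2 scale with no UMI minimum. *GATA2*, a factor of blood progenitors and mast cells, gave 8 of the 9 UMIs of the tissue to 2 nuclei of this set, while *mpx*, the myeloperoxidase gene of granulocytes, had 137 UMIs in the tissue and none in cluster 8.

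The boundaries between the sets were not clean. The deepest nucleus of the *xirp2a* set, from suffix 2 with 3024 UMIs, had 0 *xirp2a* UMIs but 6 of *prox1a*, 2 of *il22ra2* and UMIs of *cybb* and *blnk*. It held 6 of the set's 13 *prox1a* UMIs, and a second nucleus with 5 of *xirp2a* held another 6. A nucleus of 1122 UMIs in the *xirp2a* set, also from suffix 2, had 2 of *fer1l6*, 1 of *foxa3* and none of *xirp2a*. In the *prox1a* set, a nucleus of 1243 UMIs had 0 of *prox1a*, 4 of *xirp2a* and 7 of *plcg2*.

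**Figure D3:**
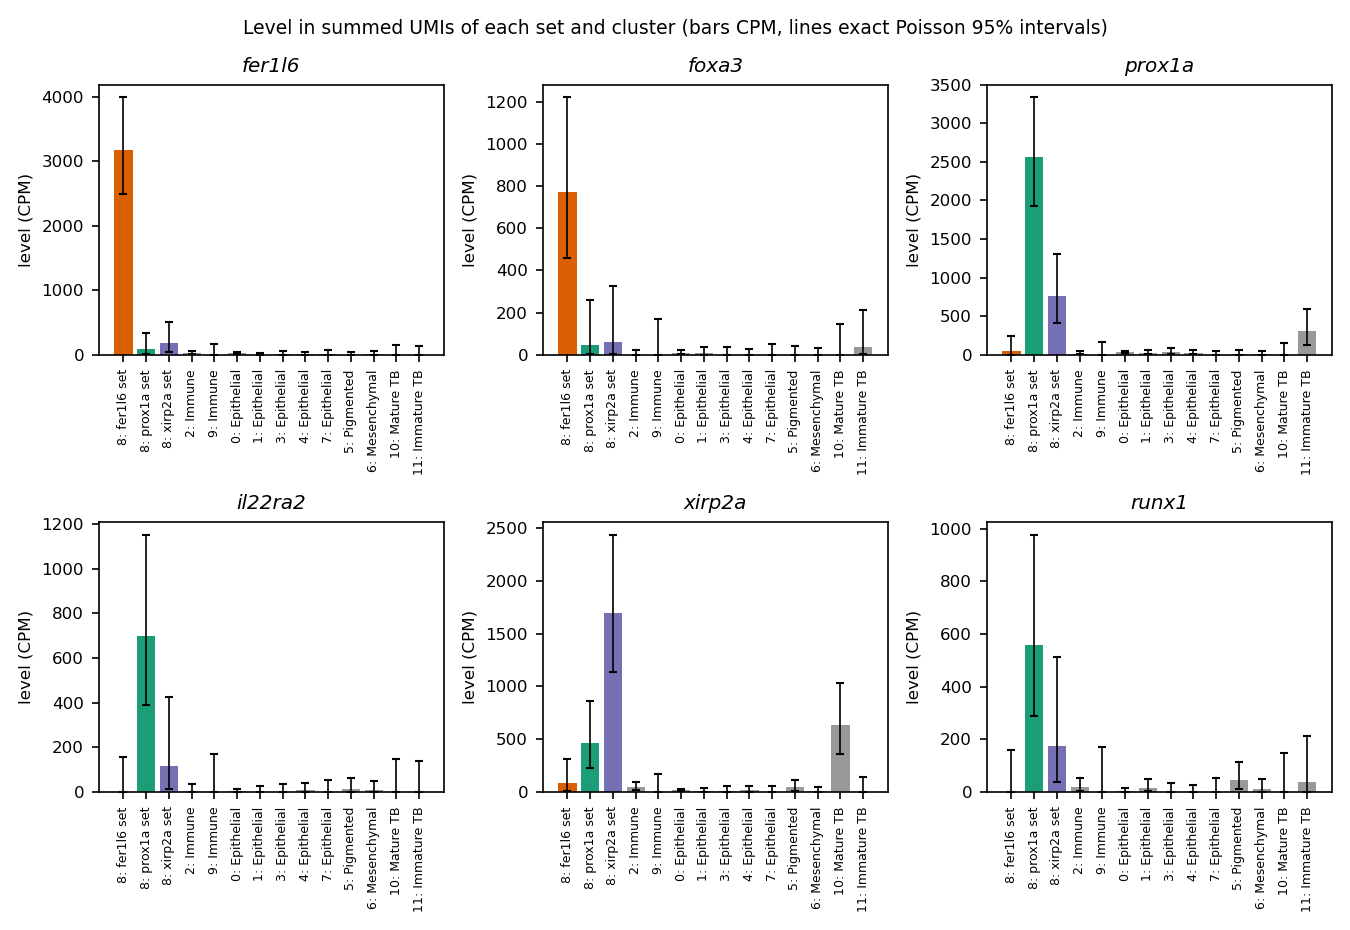
Level in CPM (linear axes) of 6 genes in the 3 sets of cluster 8 and the other 11 clusters, with exact Poisson 95% intervals as lines. *fer1l6* and *foxa3* peak in the *fer1l6* set, *prox1a*, *il22ra2* and *runx1* in the *prox1a* set, and *xirp2a* in the *xirp2a* set and then in Mature TB at 635 CPM.

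The sets were compared over 3176 features after every group was thinned to 17000 UMIs, with Pearson's r of log CPM as a description. The r between sets was 0.369 for the *fer1l6* and *xirp2a* sets, 0.389 for the *fer1l6* and *prox1a* sets and 0.413 for the *prox1a* and *xirp2a* sets. With the 11 other clusters, r ran from 0.263 to 0.382 for the *fer1l6* set, from 0.244 to 0.416 for the *prox1a* set and from 0.302 to 0.405 for the *xirp2a* set. The highest of these were with Immune cluster 2, Pigmented cluster 5 and Epithelial cluster 3, and most other clusters lay below the values between sets. At this depth much of each profile is counting error, which lowers every r.

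**Figure D4:**
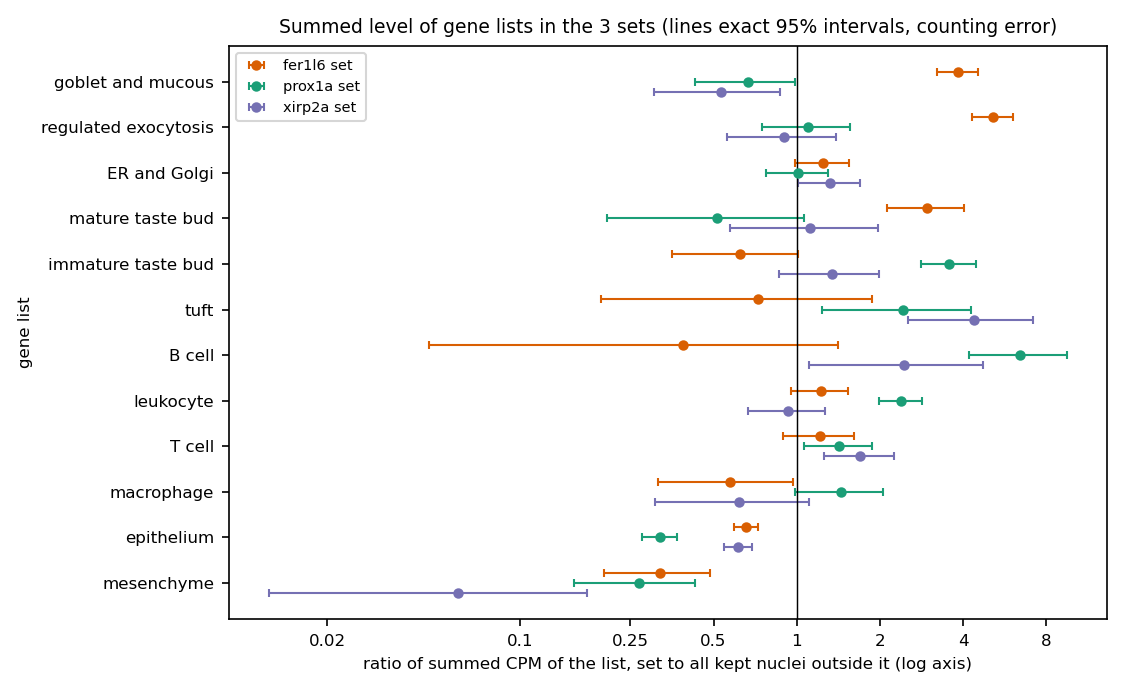
Ratio of the summed CPM of 12 gene lists in each set to all kept nuclei outside it (log axis), with exact 95% intervals for counting error. The goblet and exocytosis lists are high in the *fer1l6* set alone, where *fer1l6* itself, a member of both, holds much of each sum. The B cell and leukocyte lists are highest in the *prox1a* set, the tuft list is highest in the *xirp2a* set, and mesenchyme and epithelium lists lie below 1 in all 3.

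As 1 group, cluster 8 showed these patterns more weakly. Against all other kept nuclei, 22.5% of the 12230 measured features were higher by 2-fold or more (13.8% with TMM factors, which rescale for composition) and 5.42% lower. Among the 2768 features with at least 5 UMIs expected in the cluster, 8.24% were higher and 16.8% lower. The goblet list had 6 of 20 members higher and 2 lower, with a median log2 ratio of 0.08 beside 0.07 over all features. The exocytosis list had 10 of 23 higher and 1 lower (median 0.51), the B cell list 6 of 9 higher and 0 lower (1.65), and the leukocyte list 4 of 16 higher and 0 lower (0.57). Of the mesenchyme list 0 members were higher and 9 of 22 lower, and of the epithelium list 0 higher and 10 of 24 lower, with medians of −1.86 and −0.92.

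Immune cluster 2, with 181 nuclei and 167586 UMIs, shares the class name. Set against it, 14.8% of 4955 features were higher in cluster 8 by the same rule and 16.2% lower. T cell genes were lower in cluster 8. The T cell list had 11 of 13 measured members at least 2-fold lower in cluster 8 and none higher, and the leukocyte list 11 of 15 lower and 1 higher, with medians of −1.49 and −1.47. The B cell list had 3 of 5 measured members higher and 2 lower, with a median of 1.20 that turned to −0.63 in suffix 1 alone and to −0.55 without the *prox1a* set. *RASGRP2*, a RAS exchange factor gene of lymphocytes, had 2 UMIs against 75 (ratio 0.0723, 0.0086–0.270), and *wdr73* 14 against 1024 (0.0371, 0.0202–0.0625), the latter in 39 of 181 nuclei of cluster 2 and with 12 of the 14 UMIs in 1 nucleus of cluster 8. *foxa3* had 20 UMIs against 0, at least 18.1-fold higher, *prox1a* was 93.6-fold higher (24.9–788) and *fer1l6* 71.4-fold higher (23.6–354). The pan-leukocyte gene *ptprc* had 2 UMIs in cluster 8, both in the *xirp2a* set.

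Mature TB and Immature TB are the authors' taste bud classes of 21 and 18 nuclei. Against Mature TB, 25.9% of 2165 features were higher and 17.6% lower. *fer1l6* had 79 UMIs against 0, at least 10.7-fold higher, and *prox1a* 69 against 0, at least 9.38-fold higher. Genes that led Mature TB were nearly absent from cluster 8. *calb2a*, a calcium-binding protein gene, had 2 UMIs against 107. *PLCB2*, the phospholipase gene of taste transduction, had 0 against 28, a ratio of at most 0.0437, and *myo3a*, a myosin gene of sensory hair cells, 0 against 102, a ratio of at most 0.012. Of the mature taste bud list 0 of 6 members were higher and 4 lower. *xirp2a* was present in both, with 16 UMIs in 9 of the 21 Mature TB nuclei, 635 CPM (363–1031), which overlaps the interval of cluster 8 as a whole at 663 CPM (476–900) and lies below that of the *xirp2a* set.

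Against Immature TB, 22.4% of 2207 features were higher and 16.5% lower. *prox1a* was present there too, with 8 UMIs in 7 of 18 nuclei at 302 CPM (131–596), below the *prox1a* set and not separable by these intervals from the *xirp2a* set at 761 CPM (405–1302). The genes beside it differed. *rassf3* had 69 UMIs in cluster 8 and 0 in Immature TB, at least 9.85-fold higher, *camk1b* 62 and 0, at least 8.85-fold higher, and *xirp2a* 41 and 0, at least 5.85-fold higher. *FRMD4A*, *spire2* and *dpp6b* had 0 UMIs in cluster 8 and 27, 25 and 24 in Immature TB. *cybb* gave 15 UMIs in the *prox1a* set and 0 in Immature TB, at least 6.17-fold higher, while 3 of the 6 measured members of the immature taste bud list were higher in cluster 8 and 3 lower.

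**Figure D5:**
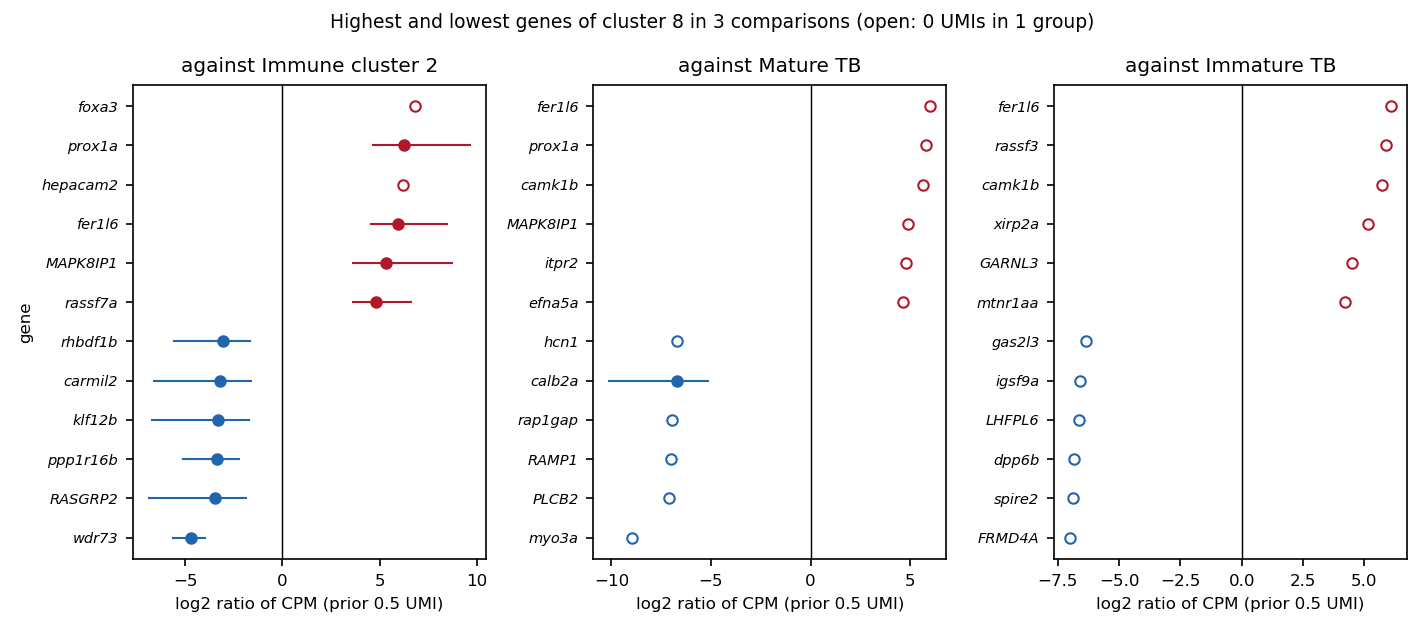
Log2 ratios of CPM (prior of 0.5 UMI) for the 6 highest and 6 lowest genes of cluster 8 against Immune cluster 2, Mature TB and Immature TB, with exact 95% intervals as lines. Open points mark genes with 0 UMIs in 1 group, where the ratio depends on the prior, as for *foxa3* against Immune cluster 2 (20 and 0 UMIs) and *PLCB2* against Mature TB (0 and 28).

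The suffixes are set side by side only. Cluster 8 made up 3.85% of the 754 kept nuclei of suffix 1 and 3.87% of the 542 of suffix 2. *prox1a* was 54.5-fold higher (29.0–109) in suffix 1 and 39.0-fold (21.3–72.7) in suffix 2, and *fer1l6* 99.7-fold (48.3–231) and 143-fold (59.1–419). *xirp2a* had 33 UMIs at 858 CPM in suffix 1 and 8 at 343 CPM in suffix 2, where only 3 nuclei of its set lay. These include the nuclei of 1122 and 3024 UMIs, which had no *xirp2a* UMI. The authors' score named cyto, a rank over nuclei, had a median of 0.285 in the *fer1l6* set, 0.129 in the *prox1a* set and 0.373 in the *xirp2a* set, against 0.512 in the other kept nuclei. How much depth, suffix or free RNA adds to the differences between sets was not tested. *krt5*, a keratin gene of basal epithelium, had 167 UMIs in the *fer1l6* set, of which 109 came from 1 nucleus.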

How the data were processed

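The deposited matrix holds raw counts of UMIs per feature and barcode for the pooled upper and lower jaw libraries, made by the authors with Cell Ranger 3.1.0 per the submitters' processing notes. The genome build is not given in the sources used here. The deposited metadata give the authors' cluster, class, kept mark, embedding and a score named cyto, whose rule is not given, so it is read as a rank. A barcode was kept by the authors where it had over 300 but under 2500 genes, a rule that gives the deposited mark for all 1381 barcodes. Columns of per-sample values left unused numbered 0.

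UMIs were summed over the nuclei of each group and divided by the total to give CPM. Ratios carry exact conditional intervals, levels exact Poisson intervals and shares Clopper-Pearson intervals, at 95%, and these cover counting error only. Log2 ratios and list medians use a prior of 0.5 UMI per sum. A feature counts as measured from 10 UMIs in the groups compared, and as higher or lower from 2-fold. A count of 0 is called lower only where the floor of 3 UMIs lies 2-fold below, and higher needs a UMI. The members and the 25 gene lists were chosen with earlier results of these data known. Named genes were the 4 markers, the 20 highest and 6 lowest symbols with at least 12 UMIs and a UMI in at least 20% of nuclei, and 6 of each per pair. List members were named from 6 UMIs. Genes named by set, and single list members below that, were chosen after their values were seen, and not every gene a rule names is printed. List members match a feature by symbol with or without a paralogue letter, and near-identical copies can share reads.

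Sets came from average linkage on the deposited embedding, cut at 3 by choice. Own clusters used scanpy 1.11.5 and leidenalg 0.10.2 (2000 variable genes, 30 components, 15 neighbours, resolution 1.0). Scrublet ran at an expected rate of 0.06. Alternatives include TMM factors, computed in R 4.3.3 with edgeR 4.0.16, with no count model fitted. The ratios and intervals were tried on simulated Poisson sums. Such sums hold no spread between nuclei, so they do not show how the intervals hold where UMIs gather in few nuclei. Scripts ran in Python 3.11.15 with pandas 2.3.3, matplotlib 3.10.9, scipy 1.17.1 and numpy 2.4.6.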

Additional observations from a re-analysis of the deposited data

Results flagged for a closer look

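Marker UMIs also appeared in the 85 barcodes that the authors did not keep, which hold 675936 UMIs and enter no comparison. *fer1l6* had 26 UMIs there in 10 barcodes, *prox1a* 21 in 7 and *foxa3* 6 in 5, each at a higher CPM than in the other kept nuclei. For *prox1a* this was 31.1 CPM (19.2–47.5) against 25 (17.3–34.9), intervals that overlap. All of them lay in the 41 barcodes with 2500 genes or more, and none in the 44 with 300 genes or fewer. The cause was not tested.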

How the results depend on the processing

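Across the alternatives to the comparisons of the whole cluster, 1764 of 2005 values for named genes and list medians stayed close to the main value and 232 moved. A further 9 changed sign from a main value of at least 2-fold. Sign changes of smaller main values were not counted apart and are among the close or moved ones. The ratios and list sums of the single sets were not varied, so these counts do not cover them. Leaving out the 1 nucleus called by Scrublet, which lies outside the cluster, could hardly move a value, and all 130 stayed close. All 130 also stayed close without ribosomal protein features. The share of features at least 2-fold higher against all other kept nuclei, 22.5%, became 13.8% with TMM factors, which shift it by 0.37 on the log2 scale (0.25, −0.35 and −0.42 in the other comparisons), and 36.6% with a prior of 2 UMIs, which lifts features with few UMIs in the smaller group. With that prior it became 14.3% against Mature TB and 12.7% against Immature TB, and with no UMI minimum 25.4% against Immune cluster 2. Nuclei with both *prox1a* and *fer1l6*, or *prox1a* and *foxa3*, fell to 0% at 800 UMIs, and those with both *foxa3* and *fer1l6* to 4.17% at 500 UMIs, where thinning removes UMIs and also leaves out shallower nuclei. The medians counted as changing sign rest on few members. These were endoderm factors against all others (−0.00702 in suffix 2 and −0.28 without the *xirp2a* set), B cell genes against Immune cluster 2 (−0.63 in suffix 1 and −0.55 without the *prox1a* set), lymphatic genes against the same cluster (−0.15 with no UMI minimum), tuft genes against Mature TB (0.29 with no minimum), and, against Immature TB, immature taste bud genes (0.46 without the deepest nuclei), O-glycosylation (−0.50) and exocytosis (−1.64) without the *fer1l6* set. No named gene is among them. Leaving out a set was chosen after seeing the data, as was the filter of 5 expected UMIs. No paired analysis was possible because the jaws form 1 pooled sample and no test was made.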
